A study of Mus musculus with 3 samples.

Results

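Lama3, Lamb3, Lama5 and Col4a1 are the laminin and collagen IV genes described here, 4 of the 258 genes counted per cell in sections of 3 mouse mammary tumours. They were chosen by name, as structural genes of the basement membrane, and not by a rule on their values, though earlier results of these data were known. The tumours are titled MMTV-PyMT WT and are embedded in paraffin after formalin fixation. They form 1 group with no control, 1 section per tumour. The meaning of WT, the strain and the age are not given in the sources used. In this model the mouse mammary tumour virus promoter drives the polyoma middle T oncogene, so that carcinomas arise from the mammary epithelium. Transcripts were decoded in place by MERFISH on the MERSCOPE instrument, and each tumour counted as 1 replicate (n = 3).

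The basement membrane is a sheet of laminin and collagen IV beneath epithelia and around blood vessels. Laminins are heterotrimers of an alpha, a beta and a gamma chain, secreted by the cells that rest on the sheet and bound by their integrins. Lama3 encodes an alpha chain and Lamb3 a beta chain that assemble with each other in the laminin that anchors stratified and basal epithelia to their matrix. Lama5 encodes another alpha chain, found in the basement membranes of many adult epithelia and vessels. Col4a1 encodes a chain of the collagen IV network, to which vessel walls and fibroblasts also contribute. In the mammary gland, basal (myoepithelial) cells lie between the luminal cells and the basement membrane.

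After filtering, 619770, 453995 and 673638 cells remained in tumours 1, 2 and 3, with medians of 98, 106 and 94 panel transcripts. Blank codes, barcodes that match no gene, took between 0.471% and 0.498% of transcripts, and they serve as the background. Levels are given as transcripts per 1000 panel transcripts. A level depends on each gene's probes, so levels of different genes are not compared. Cells took a class where they held at least 3 transcripts of a marker list from at least 2 of its genes, and no member was used for this. Basal epithelial-like cells (Krt5, Krt14, Krt15, Trp63) numbered 24349, 9482 and 20989. Non-basal epithelial-like cells (Cdh1, Krt7, Cldn4, Gata3, and no other gate) numbered 260272, 171893 and 294609. The lists for endothelium (Pecam1, Cdh5) and pericytes (Pdgfrb, Rgs5) had only 2 genes each on the panel, which is too few to name a cell type. These cells are therefore called Pecam1/Cdh5 cells (3861, 2544 and 1684) and Pdgfrb/Rgs5 cells (786, 830 and 758).

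The fibroblast list gave a class that went against its name in part. The gate took 142188, 108260 and 119293 cells, and these held a median of 7, 7 and 5 epithelial-list transcripts. These cells are called the fibroblast gate below. A narrowed gate was added after these values were seen. It required that the list make up at least 10% of a cell's transcripts, with at most 2 epithelial-list transcripts. It left 26175, 22703 and 23714 cells with a median of 1 epithelial-list transcript, called fibroblast-like below. Segmented cells can hold transcripts of their neighbours, no doublet caller was run, and no cell identifier was shared between sections.

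Over whole sections, 3 of the 4 genes stood above every blank code in each tumour. Lamb3 reached 3.73, 3.49 and 3.28 per 1000, Lama5 reached 1.93, 3.30 and 4.23, and Col4a1 reached 21.8, 21.1 and 25.9. The highest blank code stood at 0.476, 0.417 and 0.407. Lama3 stood at 0.437, 0.539 and 0.398, which was above all 27 blanks in tumour 2 and above 26 of 27 in tumours 1 and 3. Over all cells Lama3 was therefore close to background, and its levels by class are read against the blanks of the same class. Of all panel genes, 134 of 258 exceeded the highest blank in all 3 tumours.

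Among the classes defined by a single gate, Lama3 had its highest means in basal epithelial-like cells and in Pecam1/Cdh5 cells. In basal epithelial-like cells it reached 1.43, 2.18 and 1.38 per 1000 in tumours 1, 2 and 3, against highest blanks of 0.388, 0.344 and 0.364. In non-basal epithelial-like cells it stood at 0.235, 0.240 and 0.264, below the highest blank of each tumour (0.389, 0.384 and 0.346). The lowest basal value was thus above every non-basal value. The log2 fold change between these classes was 2.76 ± 0.26 (SE), a fold of 6.75 over a level that was itself within the blanks (edgeR quasi-likelihood test, Benjamini-Hochberg adjusted p = 1.33e-06). In this comparison 15.5% of all 258 genes passed the threshold of 0.05 in either direction, 9.3% higher and 6.2% lower. The difference of Lama3 between basal epithelial-like and Pecam1/Cdh5 cells was not tested. All class comparisons share the non-basal epithelial-like cells as their reference. Basal epithelial-like cells held 12.3% ± 2.97 of all Lama3 transcripts (SD, n = 3) and 3.52% of all panel transcripts. Larger shares of Lama3 lay in non-basal epithelial-like cells (24.8% ± 7.66, with 44.7% of panel transcripts), in cells passing more than 1 gate (23.7% ± 8.83, with 7.86%) and in the fibroblast gate (22.1% ± 6.14, with 27.5%).

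Pecam1/Cdh5 cells carried Lama3 at 1.44, 1.70 and 0.945 per 1000, above the highest blank of the class in every tumour (0.620, 0.664 and 0.789). All 3 values were above those of non-basal epithelial-like cells, with tumour 3 closest to its blanks. The log2 fold change against non-basal epithelial-like cells was 2.81 ± 0.26 (edgeR adjusted p = 2.44e-07), in a comparison where 62% of all genes passed and 34.1% were higher. By count these were 88 genes higher and 72 lower, or 62 and 122 when counts were scaled by their totals in place of TMM. Blank codes moved here as well: 10 of 27 were higher and 5 lower in Pecam1/Cdh5 cells, with log2 fold changes from -0.99 to 1.55, below that of Lama3.

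Basal-list and epithelial transcripts were also present in these cells, so Lama3 was read again after leaving out cells that held them. Leaving out whole cells this way also selects against genes that go with those transcripts. Distance to non-basal epithelial-like cells was not restricted. The part of neighbours' transcripts in the levels below was not tested. Pecam1/Cdh5 cells with no transcript of either list (1267, 555 and 415 cells) held Lama3 at 1.89, 2.28 and 2.09 per 1000, in each tumour above the value of the whole class. Pecam1/Cdh5 cells with no basal epithelial-like cell within 50 µm, whatever their transcripts, held it at 1.09, 1.56 and 0.870, in each tumour below the whole class and above the highest blank. Cells that met both criteria were 373, 325 and 264, with 46, 60 and 53 Lama3 transcripts. Their levels were 1.41, 2.09 and 2.22, with highest blanks of 0.795, 0.870 and 0.503. Lamb3 was lower in the same cells than in the whole class in each tumour. It fell below the highest blank in tumours 1 and 2 (0.428 and 0.522) and stood at 0.713 in tumour 3. Lama5 stayed at 3.12, 3.44 and 2.81. In these cells the alpha chain genes were thus above the blanks in all tumours, and the beta chain gene in 1 of 3.

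**Figure D1:**
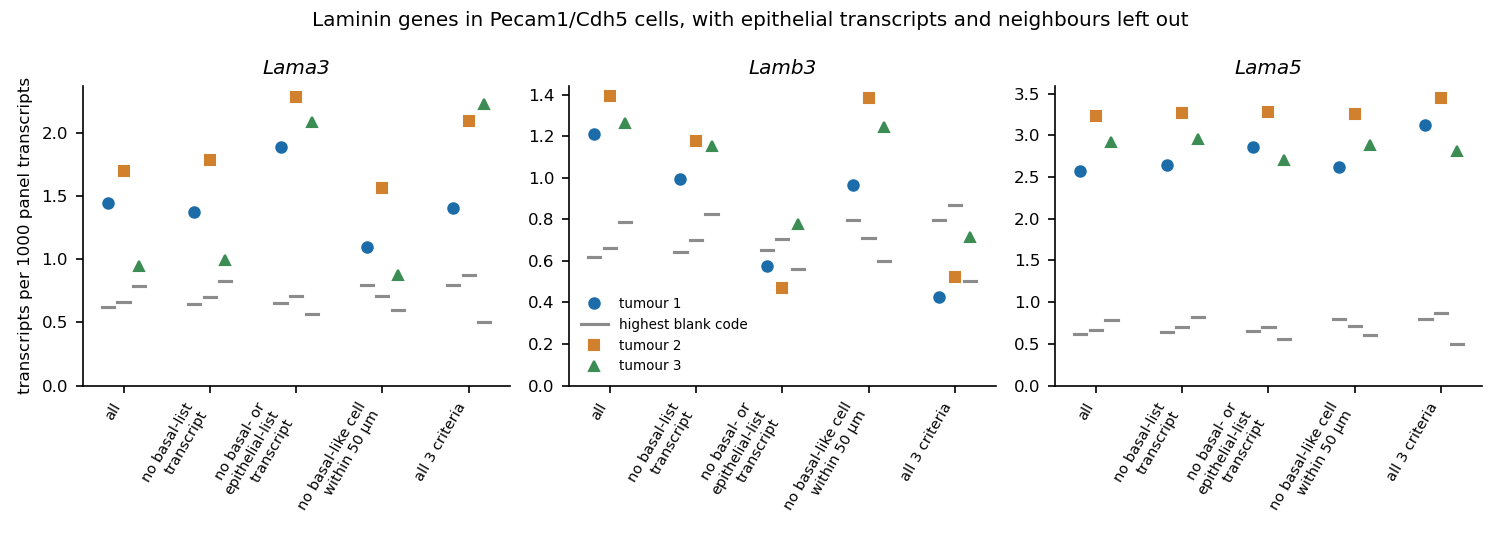
Level of Lama3, Lamb3 and Lama5 (transcripts per 1000 panel transcripts) in Pecam1/Cdh5 cells of each tumour, for all such cells and after leaving out cells with basal- or epithelial-list transcripts or with basal epithelial-like neighbours. Grey bars are the highest blank code of the same cells. With all these cells left out Lama3 stands at 1.41 to 2.22 and Lamb3 at 0.428 to 0.713.

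Cells passing more than 1 gate, of mixed markers, held Lama3 at 1.24, 1.75 and 1.22 per 1000, above all 27 blanks in every tumour (highest 0.604, 0.582 and 0.454). In Pdgfrb/Rgs5, fibroblast-like and macrophage-like cells Lama3 was within the blanks. It was 0.498, 0.467 and 0.476 per 1000 in Pdgfrb/Rgs5 cells, from 42 to 59 transcripts per tumour, with highest blanks of 1.16, 1.86 and 1.08. Its edgeR difference from non-basal epithelial-like cells (log2 1.10 ± 0.28, adjusted p = 0.00377) is therefore between a pair of levels not above background, and 7 of 27 blanks were also higher there, by up to 1.80. Fibroblast-like cells held it at 0.258, 0.490 and 0.360 (highest blanks 0.986, 0.934 and 1.37). Its edgeR difference there (log2 1.18 ± 0.25, adjusted p = 0.000507) is again between levels not above background, and 45% of all genes were higher. Blank codes were not fitted with the narrowed gate. Macrophage-like cells held it at 0.301, 0.216 and 0.193, with no detectable difference (log2 -0.10 ± 0.27, edgeR adjusted p = 0.825). The fibroblast gate reached 0.540 in tumour 2, above its blanks, and stayed below them in tumours 1 and 3.

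**Figure D2:**
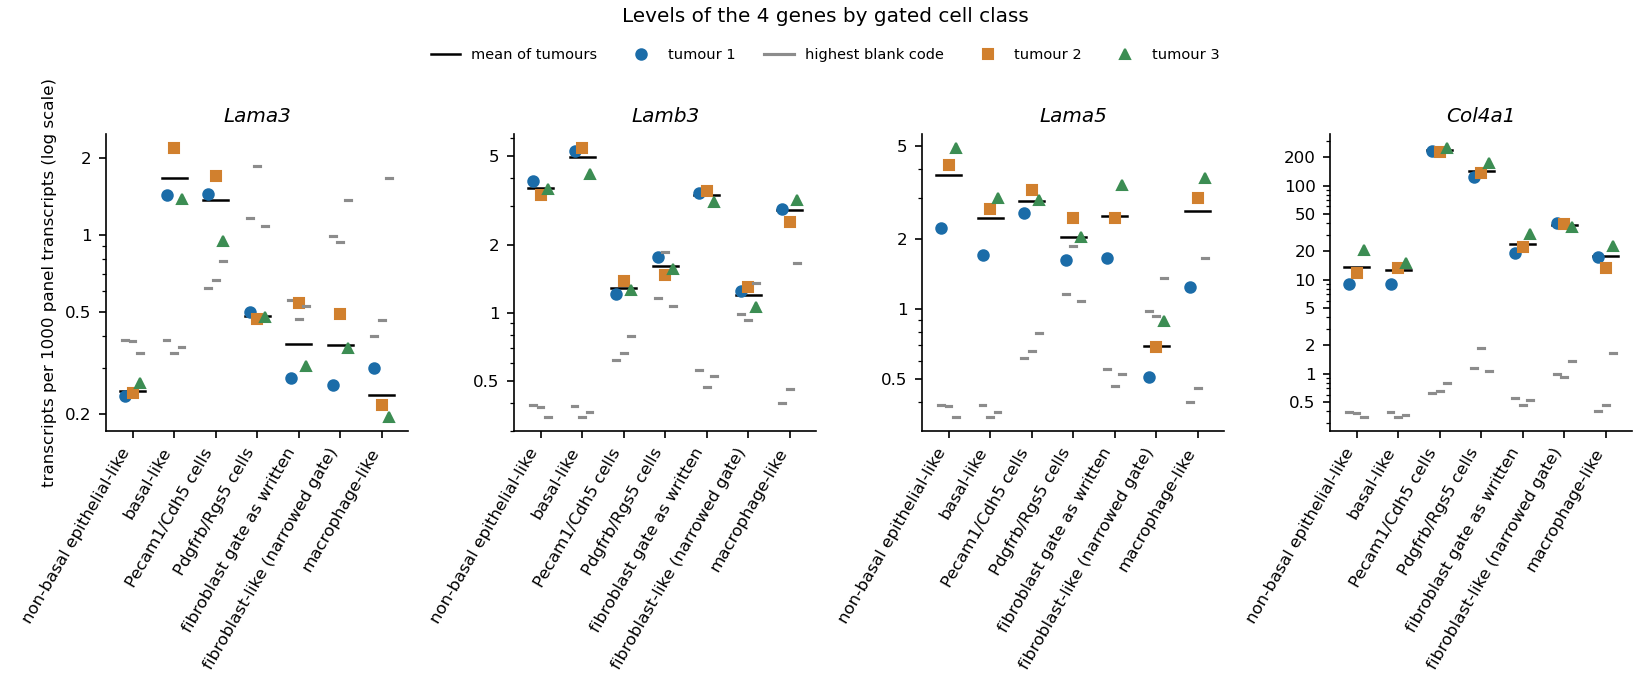
Levels of the 4 genes (transcripts per 1000 panel transcripts, log axis) in each cell class, 1 point per tumour, with the mean as a black bar and the highest blank code of the same cells as a grey bar. Lama3 is clear of the blanks in every tumour in basal epithelial-like and Pecam1/Cdh5 cells, Lamb3 is highest in basal epithelial-like cells, and Col4a1 is highest in Pecam1/Cdh5 cells (229 to 252).

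Lamb3, the beta chain gene, was higher in basal than in non-basal epithelial-like cells and lower in Pecam1/Cdh5, Pdgfrb/Rgs5 and fibroblast-like cells. Basal epithelial-like cells held 5.22, 5.42 and 4.16 per 1000, and non-basal epithelial-like cells held 3.88, 3.33 and 3.55. The basal value was the higher in each tumour. The log2 fold change was 0.50 ± 0.13, a fold of 1.42 (edgeR adjusted p = 0.016), and leaving out any 1 tumour, or the tumour block, ended this call. Of the 27 blanks, 3 were also higher in basal cells and 0 lower, with log2 fold changes up to 0.467. In fibroblast-like cells Lamb3 was 1.26, 1.30 and 1.06 per 1000, and in Pecam1/Cdh5 cells 1.21, 1.39 and 1.27. These values did not overlap with those of either epithelial class. In tumour 3 the fibroblast-like value was below the highest blank of its class. In fibroblast-like cells Lamb3 fell by 0.95 on the log2 scale (SE 0.15, edgeR adjusted p = 2.49e-05). In Pecam1/Cdh5 cells it fell by 1.09 on the log2 scale against non-basal epithelial-like cells (SE 0.13, edgeR adjusted p = 4.37e-06; 27.9% of all genes were lower). In Pdgfrb/Rgs5 cells (1.78, 1.48 and 1.58 per 1000, in tumour 2 below the highest blank) it fell by 0.999 (SE 0.14, edgeR adjusted p = 1.87e-05). There 54.3% of genes passed in either direction and 26.4% were lower, which is 72 genes higher and 68 lower, or 61 and 87 with total-count scaling. In the fibroblast gate it did not differ detectably (3.42, 3.502 and 3.12 per 1000, log2 -0.07 ± 0.13). Of all Lamb3 transcripts, 46.0% ± 7.63 lay in non-basal epithelial-like cells, which held 44.7% of all panel transcripts.

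Lama5, the broadly used alpha chain gene, had its highest mean in non-basal epithelial-like cells and differed between tumours there. It reached 2.23, 4.12 and 4.91 per 1000 in tumours 1, 2 and 3, a ratio of 2.20 between the highest and the lowest tumour, where Lamb3 had 1.16. Basal epithelial-like cells held 1.70, 2.68 and 2.99, lower than the non-basal cells of the same tumour in each case. That difference did not pass the test (log2 -0.54 ± 0.19, edgeR adjusted p = 0.0788). By direction alone Lama5 lay on the other side from Lama3 and Lamb3, both higher in basal cells. The genes were not tested against each other.

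Pecam1/Cdh5 cells held Lama5 at 2.58, 3.23 and 2.92 per 1000, a narrower range than in epithelium (coefficient of variation 11.3% against 36.7%). Their difference from non-basal epithelial-like cells was 0.11 ± 0.19 on the log2 scale (edgeR adjusted p = 0.645), and it turned to -0.28 when counts were scaled by their totals and to -0.44 when they were scaled by cell volume. Lama5 was lower in Pdgfrb/Rgs5 cells (1.63, 2.45 and 2.04 per 1000; log2 -0.67 ± 0.20, edgeR adjusted p = 0.0105), a call lost without tumour 2, without tumour 3 and without the tumour block. It was lower in the fibroblast gate (1.65, 2.45 and 3.41; log2 -0.54 ± 0.19, edgeR adjusted p = 0.0474), where 28.7% of genes passed in either direction and 8.91% were lower. That call was lost on leaving out any 1 tumour or the tumour block. Fibroblast-like cells held it at 0.511, 0.690 and 0.892, under the highest blank of their class in each tumour. There it fell by 1.77 on the log2 scale (SE 0.20, edgeR adjusted p = 7.47e-07), where 75.6% of genes passed and 30.6% were lower (116 genes higher and 79 lower, or 80 and 129 with total-count scaling). Non-basal epithelial-like cells held 53.04% ± 5.50 of all Lama5 transcripts and 44.7% of all panel transcripts.

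Macrophage-like cells (3732, 2285 and 741, from Adgre1, Cx3cr1, Cd163 and Folr2) held Lamb3 at 2.91, 2.53 and 3.17 per 1000 and Lama5 at 1.25, 2.99 and 3.64. Against non-basal epithelial-like cells Lamb3 fell by 0.39 (SE 0.13, edgeR adjusted p = 0.0275) and Lama5 by 0.63 (SE 0.19, edgeR adjusted p = 0.0179), while 42.2% of all genes passed, with 24.4% higher and 17.8% lower. The Lamb3 call was lost on leaving out any 1 tumour, the Lama5 call on leaving out tumour 1 or tumour 2, and both without the tumour block. Epithelial-list transcripts stood at 49.8 per 1000 in these cells against 73.3 in non-basal epithelial-like cells, and their part in these levels was not tested.

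Col4a1 was highest in cells carrying endothelial and pericyte markers. Pecam1/Cdh5 cells held it at 232, 229 and 252 per 1000, and Pdgfrb/Rgs5 cells at 124, 135 and 174. Non-basal epithelial-like cells held 8.97, 11.7 and 20.6, with no overlap with either of these classes. The log2 fold change was 4.57 ± 0.20 in Pecam1/Cdh5 cells, a fold of 23.8 (edgeR adjusted p = 3.93e-11). In Pdgfrb/Rgs5 cells it was 3.597 ± 0.19, a fold of 12.1 (edgeR adjusted p = 7.23e-10), where 27.9% of genes were higher. Pecam1/Cdh5 transcripts also reached Pdgfrb/Rgs5 cells, at a list level of 3.62 per 1000 (2.52 to 4.90) against 44.9 in Pecam1/Cdh5 cells and 0.619 in non-basal epithelial-like cells. Their part in the Col4a1 level was not tested.

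Fibroblast-like cells held Col4a1 at 40.01, 38.9 and 36.1 per 1000, above every value of the epithelial and macrophage-like classes. Against non-basal epithelial-like cells this was a log2 fold change of 2.17 ± 0.21, a fold of 4.49 (edgeR adjusted p = 1.18e-07; 45% of genes were higher). In the fibroblast gate Col4a1 was 19.1, 22.0 and 30.2, a log2 fold change of 0.86 ± 0.17 (edgeR adjusted p = 0.0015; 19.8% higher). Basal epithelial-like cells (9.10, 13.4 and 15.2) and macrophage-like cells (17.4, 13.2 and 22.7) overlapped with non-basal epithelial-like cells, and neither passed the edgeR test (adjusted p = 0.936 and 0.118).

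High level and large share did not go together for Col4a1. Pecam1/Cdh5 cells held 5.35% ± 2.16 of all Col4a1 transcripts while holding 0.508% of panel transcripts, and Pdgfrb/Rgs5 cells held 0.961% ± 0.359. Non-basal epithelial-like cells, far more numerous, held 26.9% ± 11.96, below their 44.7% of panel transcripts. The fibroblast gate held 28.0% ± 2.12, near its 27.5% of panel transcripts. Another 18.04% ± 7.64 lay in cells passing more than 1 gate (7.86% of panel transcripts) and 18.6% ± 5.12 in cells passing none (15.3%).

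The list of basement membrane genes held another 10 panel genes, among them Sparc, which binds collagen IV, Fn1 (fibronectin), Tnc (tenascin C), Cd44 and matrix proteases with their inhibitors. None of the 10 is a laminin or collagen IV gene, so the counts below cover matrix genes more widely. In basal epithelial-like cells 2 of the 10 were higher and 0 lower: Sparc (log2 1.05 ± 0.14) and Mmp2, a protease that cleaves collagen IV (0.65 ± 0.16). Mmp2 stood at 0.448, 0.366 and 0.248 per 1000 in the non-basal reference, above its highest blank in tumour 1 only. The median of the 10 was -0.01 against 0.01 over all genes, of which 9.3% were higher and 6.2% lower. In Pecam1/Cdh5 cells 7 were higher and 2 lower (median 0.74 against -0.01), beside 34.1% and 27.9% of all genes, and with total-count scaling 5 were higher and 2 lower. Sparc led at 3.85 ± 0.16 and Mmp13 followed at 3.31 ± 0.21, with Cd44 and Timp2 lower. Mmp13 was 1.80, 2.04 and 3.19 per 1000 in Pecam1/Cdh5 cells, but in the non-basal reference (0.276, 0.274 and 0.351) it was below the highest blank in tumours 1 and 2, so its fold is over a level near background. In Pdgfrb/Rgs5 cells 6 were higher and 2 lower (median 0.92 against -0.09), beside 27.9% and 26.4% of all genes. In the fibroblast gate 7 were higher and 1 lower (median 0.86 against -0.07), beside 19.8% and 8.91%. In fibroblast-like cells 8 were higher and 1 lower (median 2.56 against 0.22), beside 45% and 30.6%, and with total-count scaling 8 and 2. In macrophage-like cells 5 were higher and 1 lower (median 0.52 against 0.05), beside 24.4% and 17.8%, and with total-count scaling 6 and 0, with Fn1 at 1.86 ± 0.42 and Mmp14, a membrane-bound collagenase, at 1.22 ± 0.23. The last 2 values are edgeR log2 fold changes against non-basal epithelial-like cells, as are the others.

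Co-detection asked whether the chains occur in the same cells. Cells were thinned to 50 transcripts, and the share with both genes was divided by the product of the single shares, so that independence gives a ratio of 1. After thinning, Lama3 was detected in 8.41% ± 2.27 of basal epithelial-like cells, 7.04% ± 2.04 of Pecam1/Cdh5 cells and 1.29% ± 0.10 of non-basal epithelial-like cells. Lamb3 was detected in 20.7% ± 2.27, 5.14% ± 0.535 and 15.4% ± 1.25 of the same classes. These shares follow the order of the levels.

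Lama3 and Lamb3, partners in the anchoring laminin, were found together in basal epithelial-like cells more often than independence gives, at 1.32, 1.25 and 1.2 times in tumours 1, 2 and 3 (243 to 454 cells with both). The ratio for Lama3 with any blank code was 1.01, 0.817 and 0.911. Blank counts were not thinned, so blank detection there still depends on the depth of a cell. The median ratio of Lama3 with other genes, thinned alike, was 0.849, 0.902 and 0.909. All 3 tumours were thus above both references. In non-basal epithelial-like cells the Lama3 and Lamb3 ratio was 1.18 ± 0.20 and fell to 0.99 in 1 tumour. In Pecam1/Cdh5 cells it was 0.70 ± 0.26, from 2 to 12 cells with both, which is too few to order the tumours.

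Lama3 and Lama5, both alpha chains, met in Pecam1/Cdh5 cells at 1.61, 1.21 and 1.55 times the independent rate (17 to 44 cells with both). That excess was not seen when cells were thinned to 30 transcripts (0.99 ± 0.38, from 3 cells in the sparsest tumour). In basal epithelial-like cells the pair gave 1.08 ± 0.27, with tumours on either side of 1. Lamb3 with Lama5 was 1.02 ± 0.05 in basal and 0.99 ± 0.07 in non-basal epithelial-like cells. Pairs with Col4a1 in Pecam1/Cdh5 cells lay between 0.97 and 1.02, in a class where 98.2% ± 0.370 of thinned cells carried Col4a1.

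**Figure D3:**
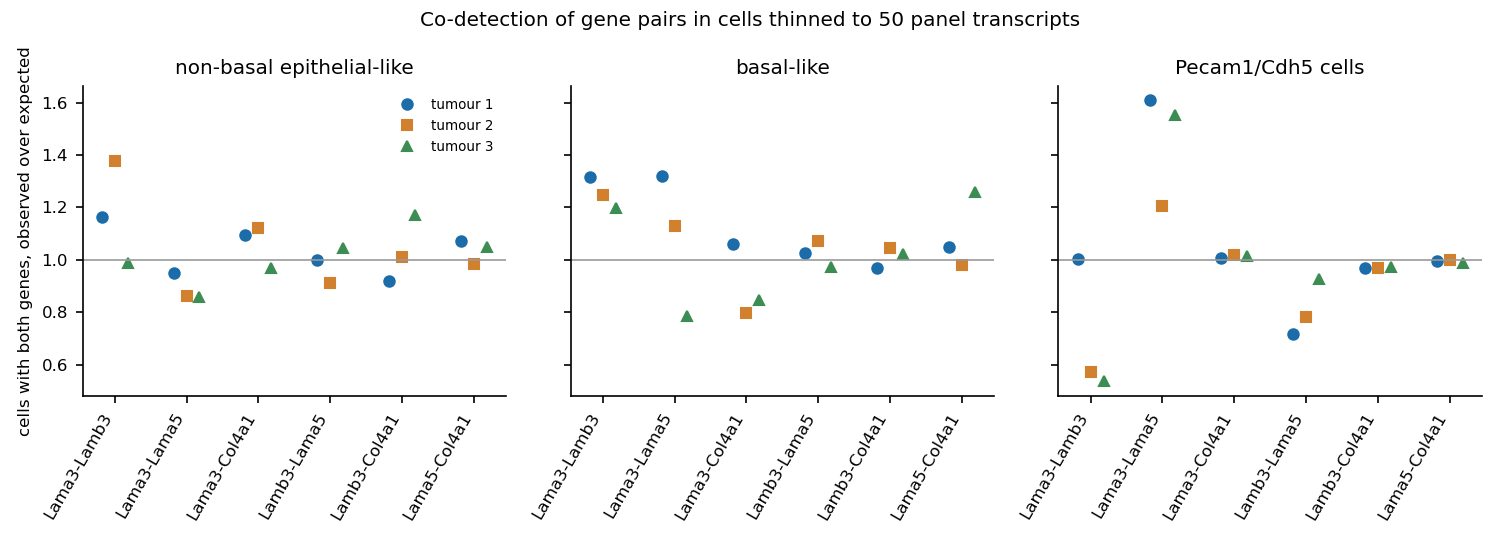
Observed over expected share of cells with both genes of a pair, in cells thinned to 50 panel transcripts, 1 point per tumour; the line marks independence. Lama3 with Lamb3 lies above the line in all 3 tumours in basal epithelial-like cells (1.2 to 1.32), and Lama3 with Lama5 lies above it in Pecam1/Cdh5 cells (1.21 to 1.61).

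Position relative to stroma was compared in non-basal epithelial-like cells near a class (a cell centre within 25 µm) and far from it (none within 75 µm). With the fibroblast gate almost no cell was far: 42, 3468 and 6087 cells, against 240709, 129823 and 218792 near. No member passed the edgeR test, while 1 passed at an unadjusted p under 0.05, as did 47 genes. DESeq2 called 25 genes, 1 of them a member. In edgeR 1.94% of all genes passed, 1.55% higher and 0.388% lower (4 genes and 1 gene, or 8 and 7 with total-count scaling). Lama5 was 2.20, 3.71 and 4.66 per 1000 near and 3.32, 6.39 and 6.01 far (log2 -0.60 ± 0.31, adjusted p = 0.309), and Col4a1 had the largest member difference (1.55 ± 0.41, adjusted p = 0.116).

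Fibroblast-like cells of the narrowed gate gave fuller arms, with 82743, 28857 and 44199 near cells and 15307, 59294 and 105652 far cells. Lama5 was lower near them in every tumour. It stood at 2.01, 2.85 and 3.63 per 1000 near and at 3.07, 5.24 and 5.75 far. Marker genes of other classes moved the other way in the same arms. Col1a1, a fibrillar collagen gene of fibroblasts, stood at 16.1, 26.5 and 24.9 in the near cells and at 4.45, 3.68 and 3.05 in the far cells. Krt5, a basal keratin gene, stood at 2.99, 1.66 and 2.52 near and 1.53, 0.706 and 0.715 far. The part of such transcripts in the Lama5 difference was not tested, beside a Lama5 level of 0.511 to 0.892 in fibroblast-like cells themselves. Lama5 fell by 0.74 on the log2 scale (SE 0.14, edgeR adjusted p = 0.0309), in a comparison where 8.91% of all genes passed, 5.04% higher and 3.88% lower (13 and 10 genes, or 3 and 1 with total-count scaling). The call was lost without tumour 1 (adjusted p = 0.233) and without tumour 2 (0.0616), under total-count scaling (0.056) and without the tumour as a block (0.49). The log2 difference stayed between -0.65 and -0.83 over all settings run with the narrowed gate.

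The level of Lama5 rose steadily with distance in tumours 2 and 3. It went from 2.67 per 1000 within 15 µm to 5.99 beyond 150 µm in tumour 2 and from 3.43 to 6.02 in tumour 3. In tumour 1 it rose from 1.98 to 3.23 at 100 to 150 µm and stood at 2.40 beyond. The level within 15 µm was below that at 50 to 75 µm in all 3 tumours (mean log2 ratio -0.46 ± 0.13, SD). The highest blank was also higher beyond 150 µm than within 15 µm in tumours 1 and 2, at 0.680 against 0.430 and 0.521 against 0.385, and its part in the Lama5 profile was not tested. Across 100 µm tiles the summed blank counts correlated with Lama5 at a mean rho of 0.385. Those sums were not scaled to the transcripts of a tile, so they also depend on its cells and depth and are not a background rate.

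Lama3 had the reverse profile at a level near background. Near fibroblast-like cells it stood at 0.261, 0.422 and 0.306 per 1000, and far from them at 0.190, 0.142 and 0.247, higher near in all 3 tumours. The edgeR difference did not pass (log2 0.75 ± 0.25, adjusted p = 0.119), though DESeq2 called it (adjusted p = 0.0181). DESeq2 called 95 of all 258 genes in this comparison. In tumour 2 the levels within 15 µm (0.485) and at 15 to 25 µm (0.391) were above the highest blanks of 0.385 and 0.344. All other bins, and every bin of tumours 1 and 3, were below theirs. Krt5 and Col1a1 were higher near in the same cells, as given above, and their part in the Lama3 level was not tested. Lamb3 did not move one way: it was higher near in tumours 1 and 2 (3.83 and 4.20 against 2.99 and 2.82) and lower near in tumour 3 (3.09 against 3.63; log2 0.21 ± 0.20, edgeR adjusted p = 0.538).

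**Figure D4:**
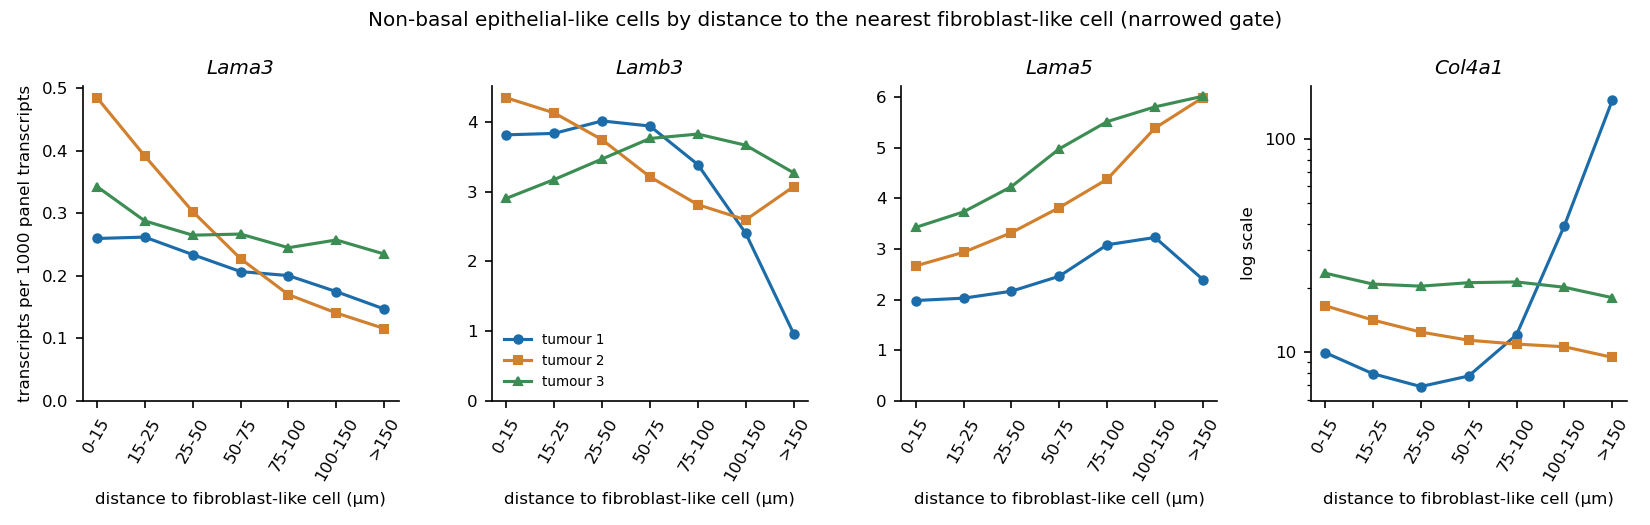
Levels of the 4 genes (transcripts per 1000 panel transcripts) in non-basal epithelial-like cells by distance in µm to the nearest fibroblast-like cell of the narrowed gate, 1 line per tumour; the Col4a1 axis is logarithmic. Lama5 is lowest within 15 µm in all 3 tumours, and Col4a1 climbs to 151 beyond 150 µm in tumour 1 alone.

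In basal epithelial-like cells the same contrast with fibroblast-like cells rested on 804, 1375 and 2770 far cells. Lama3 stood at 1.68, 2.17 and 1.51 per 1000 near and 1.22, 1.85 and 0.960 far, higher near in each tumour. In tumour 2 it was 2.17 within 15 µm, 2.14 at 100 to 150 µm and 0.801 beyond (211 cells). Lama5 stood at 1.69, 2.42 and 2.25 near and 1.96, 3.44 and 4.63 far, lower near in each tumour. In the same arms Col1a1 was 17.1, 24.4 and 29.6 near against 5.67, 4.82 and 4.06 far, and Krt5 53.8, 27.1 and 46.1 against 39.5, 21.9 and 18.3. Their part in both differences was not tested. Neither Lama3 nor Lama5 passed the edgeR test (log2 0.47 ± 0.16, adjusted p = 0.23, and -0.57 ± 0.20, adjusted p = 0.256). No gene passed (0%), while 47 genes, 2 of them members, had an unadjusted p under 0.05. DESeq2 called 13 genes and 0 members. With the fibroblast gate the far arms held 1, 319 and 55 cells, which is too few to read. In edgeR 2.33% of genes passed (0.775% higher and 1.55% lower) with 0 members among them. At an unadjusted p under 0.05 there were 35 genes and 0 members, and DESeq2 called 4 genes and 0 members. By distance to the fibroblast gate, Lama3 in basal cells went the other way. It was lower within 15 µm than at 25 to 50 µm in each tumour. At 25 to 50 µm it stood at 1.41, 3.95 and 1.67 per 1000 (1403, 1662 and 3745 cells). Tumour 1 hardly differed, with 1.38 within 15 µm. In tumour 2 the highest blank rose as well, from 0.332 to 0.725. The cause of the reversal between gates was not tested. The near-far difference between basal and non-basal cells was tested itself. It gave no gene with either gate in edgeR (0%). With the fibroblast gate it used the same far arms of basal cells, too few to read, so it cannot decide the question there. At an unadjusted p under 0.05 there were 53 genes, 1 a member, with the fibroblast gate and 11 genes with the narrowed gate. DESeq2 called 3 and 0 genes, with 0 members in both. With the narrowed gate a difference between the cell classes in these gradients was not detectable at this number of tumours.

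Col4a1 in epithelial-like cells was higher beside Pecam1/Cdh5 cells. Non-basal epithelial-like cells near a Pecam1/Cdh5 cell held 14.7, 16.6 and 29.3 per 1000, and those far from any held 7.64, 10.9 and 19.6. It was higher near in all 3 tumours, with a log2 fold change of 0.66 ± 0.09, a fold of 1.58 (edgeR adjusted p = 0.00704; 12.8% of genes passed, 6.59% higher and 6.2% lower). No other member passed this comparison, with log2 differences of -0.06 for Lama3, -0.09 for Lamb3 and -0.17 for Lama5. Leaving out any 1 tumour, or the tumour block, ended the call (without 1 tumour, adjusted p from 0.0665 to 0.273), while the change stayed between 0.54 and 0.75. With arms matched within 300 µm tiles it was 0.63 ± 0.05 (edgeR adjusted p = 9.77e-06).

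Pecam1 itself was higher in the near cells of all 3 tumours, from 0.227 ± 0.033 to 0.565 ± 0.036 per 1000. In cells without any Pecam1 or Cdh5 transcript the Col4a1 difference was 0.52 ± 0.09 (edgeR adjusted p = 0.00997). Pecam1/Cdh5 cells held Col4a1 at 229 to 252 per 1000, against 44.9 for their list genes together. A cell without list transcripts can thus still hold Col4a1 transcripts of such a neighbour, and their part was not tested. Col1a1 was also higher near in all 3 tumours, at 12.6 ± 1.12 per 1000 against 9.17 ± 1.07 far. Fibroblast-like cells held Col4a1 at 36.1 to 40.01, and the part of their transcripts was not tested either. Sparc, the other gene of the basement membrane list higher near Pecam1/Cdh5 cells, rose by 0.68 ± 0.06, and Tnc fell by 0.54. These were 1 of the other 10 list genes higher and 1 lower, with a median of 0.05 against -0.01 over all genes.

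The Col4a1 profile was steepest next to Pecam1/Cdh5 cells. In non-basal epithelial-like cells it went from 26.6 ± 8.92 per 1000 within 15 µm to 17.4 ± 7.51 at 15 to 25 µm and 11.5 ± 5.72 beyond 150 µm. Without Pecam1 or Cdh5 transcripts the ends were 21.3 ± 7.35 and 11.1 ± 5.69. Fibroblast-like cells had a profile of their own, from 66.4 ± 7.26 within 15 µm down to 26.8 ± 3.27 beyond 150 µm, falling from bin to bin in every tumour. Within 15 µm these cells held 60.5, 64.2 and 74.5, and beyond 150 µm 23.1, 28.8 and 28.6.

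**Figure D5:**
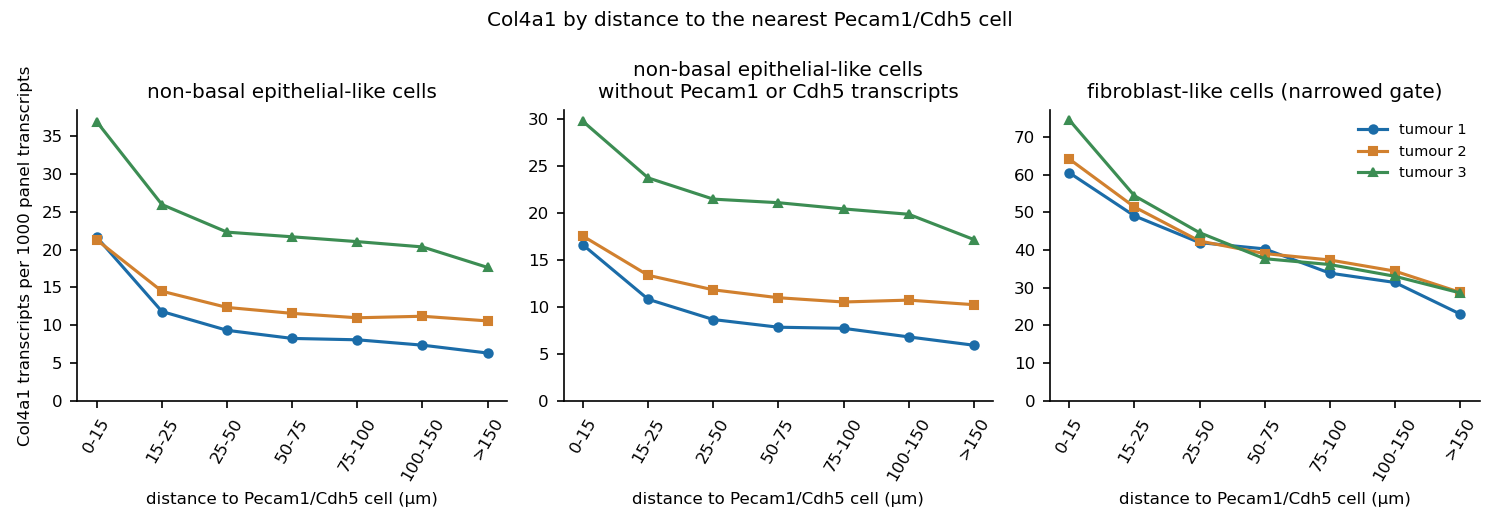
Col4a1 (transcripts per 1000 panel transcripts) by distance in µm to the nearest Pecam1/Cdh5 cell, 1 line per tumour, in non-basal epithelial-like cells, in those without Pecam1 or Cdh5 transcripts, and in fibroblast-like cells of the narrowed gate. All 3 tumours fall from the first bin, within 15 µm, to the last, beyond 150 µm, in each panel.

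Relative to fibroblast-like cells Col4a1 did not move one way. In tumour 1 it stood at 8.61 per 1000 near and 28.0 far, in tumour 2 at 14.9 and 10.4, and in tumour 3 at 21.7 and 20.1 (log2 -0.36 ± 0.42, edgeR adjusted p = 0.624). In tumour 1 the farthest cells were the highest: 1070 cells beyond 150 µm held 151 per 1000, against 9.47 and 18.02 in tumours 2 and 3. Those cells also held Il17b at 13.9 per 1000 (0.483 and 0.331 in the other tumours), the smooth muscle actin gene Acta2 at 5.79 (0.261 and 0.297) and the matrix protein gene Mgp at 27.2 (0.999 and 0.749). With cells carrying Il17b and contractile transcripts left out, and all cells within 50 µm of them, tumour 1 held 8.05 near and 6.09 far, and the log2 difference over tumours became 0.33.

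Over 100 µm tiles of non-basal epithelial-like cells (4274, 3758 and 5160 tiles with at least 20 cells), the genes most like each member were ranked by their mean Spearman rho. These are descriptions, and the values of a tile share its cells and depth. Lama3 was most like Krt5 (0.237, from 0.217 to 0.2501), then Sparc (0.193, from -0.0026 in tumour 1 to 0.305) and Postn (0.180, from 0.0325 in tumour 1 to 0.266). Lamb3 was most like Flna (0.391, from 0.123 to 0.610), which encodes an actin cross-linker, then Krt14 (0.369, from 0.271 to 0.551) and Anxa1 (0.342, from 0.114 to 0.464). Lama5 was most like S100a6 (0.366, from 0.182 to 0.513), Actn1 (0.352, from 0.252 to 0.470) and Anxa1 (0.346, from 0.261 to 0.496). Each mean was below the mean rho of Lama5 with the summed blanks, which were not scaled to the transcripts of a tile. Col4a1 was most like Mmp14 (0.377, from 0.133 to 0.564), Tead1 (0.307, from 0.182 to 0.495) and Fn1 (0.278, from 0.0593 to 0.548). Among the members, Lama5 and Col4a1 had the highest mean rho (0.223), Lama3 and Lamb3 had 0.104, and Lama3 and Lama5 had -0.134.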

How the data were processed

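Transcripts of 258 genes and 27 blank codes were counted per segmented cell in 3 tumour sections. The deposited tables hold raw counts made by the authors, per the file headers, with no normalization. In every cell gene and blank counts summed to the deposited total. The volume and centre deposited for each cell have no stated unit, and µm was assumed. Decoding and segmentation software are not named in the sources used. Scanpy 1.9.3 appears in the submitters' processing notes, with no stated use. The design text states 265 panel genes, and 258 were analysed here.

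Cells with fewer than 20 panel transcripts, or with a volume below 50 or above 3 times the section's median, were removed. The cells kept held 69750239, 59072435 and 76233597 panel transcripts. Their counts were summed per tumour and class (18 sums from 6 gated classes) or per tumour and distance arm. Sums were tested over all 258 genes in edgeR 4.0.16 (limma 3.58.1, R 4.3.3) after filterByExpr and TMM, by the two-sided quasi-likelihood test with Benjamini-Hochberg adjustment at 0.05. Tumour was a block, since classes and arms come from the same 3 sections. DESeq2 1.42.0 was an alternative. The labels name the tumours only as replicates. With the block, p-values rest on how much class or arm differences vary over these 3 sections. Level differences between sections are absorbed by the block. In the class fit the spread is estimated from all 18 sums together. Co-detection used cells thinned to 50 transcripts (seed 1), leaving out shallower ones. Other steps used Python 3.11.15 with numpy 2.4.6, scipy 1.17.1 and pandas 2.3.3. The fits were also run on simulated counts with known changes. Recovery of those changes was not required of fits with few cells in an arm, as near and far from the fibroblast gate.

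The named genes are the 4 members, the panel genes of the basement membrane list, and the 3 genes above the blanks most like each member over tiles. Il17b, Acta2, Mgp, Krt5 and Pecam1 were added for what they show beside a result. Members and lists were chosen with earlier results of these data known. The narrowed fibroblast gate and the settings around Il17b were added after the data were seen.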

Additional observations from a re-analysis of the deposited data

How the results depend on the processing

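Of the log2 changes of single members, 25 changed sign under some setting, 29 lost a call and 20 gained one, while 470 kept both. The cause of each change was not tested. Non-basal epithelial-like cells near and far from the fibroblast gate gave 1 member called, in place of 0, with total panel counts, with DESeq2, with cell volume as scale, in cells without neighbour-list transcripts and with the narrowed gate, and 0 to 1 when each tumour was left out. Lama3 there was -0.025 with arms matched within tiles and ran from -0.41 to 0.68 over left-out tumours, and Col4a1 was -0.36 with the narrowed gate. With the narrowed gate, 2 members were called by DESeq2, 0 with total panel counts and 0 to 3 without 1 tumour. DESeq2 called 95 of all 258 genes there, against 23 in edgeR. Col4a1 there ran from -0.81 to 0.29 over left-out tumours (0.29 without tumour 1), and was 0.33 away from Il17b and contractile cells. Near Pecam1/Cdh5 cells 0 members were called without any 1 tumour. Under cell volume Lama3 was 0.12, Lamb3 0.088 and Lama5 0.0050, and Lama3 was 0.11 with matched arms and -0.16 to 0.063 over left-out tumours. The near-far difference between basal and non-basal cells gave 0 to 1 members without 1 tumour. In its narrowed form left-out tumours gave Lama3 -0.70 to 0.24, Lama5 -0.036 to 0.34 and Col4a1 -0.65 to 0.51, and Col4a1 was -0.33 away from Il17b cells. Lamb3 in basal cells near fibroblast-like cells ran from -0.084 to 0.30 over left-out tumours.

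By class, left-out tumours gave 1 member in basal, 1 in fibroblast-gate and 0 to 1 in macrophage-like cells, in place of 2 each. Macrophage-like cells gave 1 with total panel counts, and the fibroblast gate 1 with cell volume and 4 with the narrowed gate. Leaving out mixed cells gave 4 members in each of these stromal classes, with Lama3 in macrophage-like cells at 0.71. The number of all genes called varied over settings too, as given below. Col4a1 in basal cells was 0.47 without mixed cells, 0.014 away from Il17b cells and -0.22 to 0.12 over left-out tumours. Lamb3 in the fibroblast gate was -0.18 to 0.022 and Lama3 in macrophage-like cells -0.43 to 0.022 over left-out tumours. Lama5 in Pecam1/Cdh5 cells was -0.28 with total panel counts, -0.44 with cell volume and -0.15 to 0.30 over left-out tumours. Co-detection of Lama3 with Lama5 in Pecam1/Cdh5 cells was 0.99 at 30 transcripts. The log2 ratio of levels within 15 µm and at 50 to 75 µm of the fibroblast gate was, over left-out tumours, -0.27 to 0.48 for Lama3 and -0.16 to 0.97 for Col4a1, and for Lamb3 it was 0.0049 with the narrowed gate.

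Without the replicate block, 1 member was called in basal cells, 0 in the fibroblast gate, 0 in macrophage-like cells, 0 near Pecam1/Cdh5 cells and 0 near fibroblast-like cells, and Col4a1 in the narrowed near-far difference between cell classes was -0.088. Scaling by totals moved the median log2 change of all genes from -0.01 to -0.40 in Pecam1/Cdh5 cells, from -0.09 to -0.24 in Pdgfrb/Rgs5 cells and from 0.22 to -0.39 in fibroblast-like cells.

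Over all genes the number called was 5 near the fibroblast gate in non-basal cells (0 to 28 over settings), 23 with the narrowed gate (0 to 95), 33 near Pecam1/Cdh5 cells (0 to 91), and in basal cells 6 (0 to 33) and, narrowed, 0 (0 to 28). The difference between the cell classes gave 0 with both gates (0 to 36 and 0 to 2). By class the number was 40 in basal epithelial-like (12 to 102), 74 in fibroblast-gate (30 to 195), 160 in Pecam1/Cdh5 (114 to 191), 140 in Pdgfrb/Rgs5 (84 to 161) and 109 in macrophage-like cells (46 to 150).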

Other observations

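Cells outside the stromal gates that carried at least 2 Il17b transcripts and passed the contractile list (Acta2, Tagln, Myl9, Mylk, Il17b) were looked at after their Col4a1 levels were seen. They numbered 4963, 893 and 1382 in tumours 1, 2 and 3. Il17b encodes a cytokine of the interleukin 17 family, and the other list genes encode parts of the contractile apparatus. They held Col4a1 at 234, 29.5 and 98.95 per 1000 panel transcripts, and 8.80%, 0.439% and 0.937% of all Col4a1 transcripts of their section. The level in tumour 1 was thus as high as in its Pecam1/Cdh5 cells, while Pecam1 itself stood at 0.397, below the highest blank of 0.848 there. Mgp, a matrix protein gene, stood at 43.4, 9.29 and 5.27. Lama3 ran the other way over the tumours, at 0.330, 1.16 and 2.79, against highest blanks of 0.848, 0.425 and 0.614. Lamb3 was 0.883, 4.31 and 2.26 and Lama5 1.76, 3.11 and 2.83. No test was made, since the cells were chosen after the data were seen.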
